A study of Mus musculus with 14 samples.

Results

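Esrrb, Tfcp2l1, Zfp42, Tbx3, Prdm14 and Nr0b1 are transcription regulators of the naive pluripotent state, and their levels were followed in mouse embryonic stem cells (ESCs) on the way to extraembryonic endoderm (XEN) cells. These 6 genes were taken by symbol from the 23174 rows of the deposited table, and each symbol matched 1 row. Expression was measured by polyA RNA-seq in 14 libraries, to ask whether the zinc finger factor Zfp281 holds back the conversion of ESCs into XEN cells. The ESC lines have the strain background 129S1/SVImJ: the wild-type line WT3, a pair of lines with Zfp281 knocked out (KO2.6 and KO3.34), and Rescue3.34, in which Zfp281 was restored to KO3.34 cells. WT3 and Rescue3.34 are together called the Zfp281-present lines. Each ESC line gave 1 library undifferentiated (ESC, passage 0), 1 at passage 1 (cXENp1) and 1 at passage 3 (cXENp3). Passage 1 followed 48 hours in XEN medium with 10 ng/mL of activin A plus 0.01 µM of the all-trans form of retinoic acid, and passage 3 followed a passage on inactivated fibroblast feeders. The ESC medium contained LIF and the XEN medium is listed without it, so medium, treatment and stage cannot be told apart. XENB1 (129S1) and XEN5 (129S1/SVImJ) are established wild-type XEN lines with 1 library each. No line has replicate libraries of a stage, so p-values rest on differences between lines. Comparisons of genotypes pool the spread over all stages, so a gene has the same standard error at each stage. The fit with line as a block uses the spread that stage and line leave, which includes differences between genotypes in the change over stages.

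Naive pluripotency is the state of the epiblast of the preimplantation embryo, and mouse ESCs grown with LIF hold it through a circuit of transcription factors placed around Oct4 (Pou5f1), Sox2 and Nanog. Esrrb, an orphan nuclear receptor, and Tfcp2l1, a factor of the CP2 family, carry the WNT and LIF inputs into this circuit. Tbx3, a T-box factor, acts downstream of LIF and is also used by extraembryonic endoderm. Prdm14, a PR-domain protein, represses FGF signalling and the de novo DNA methyltransferases and is needed for primordial germ cells. Zfp42, also called Rex1, is a zinc finger protein that serves as the reporter of the naive state, and Nr0b1, also called Dax1, is an X-linked nuclear receptor without a DNA-binding domain that restrains Oct4.

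The libraries were first compared with their labels. Values are FPKM, which count fragments per length of transcript and per size of library; their sums ranged from 424406 to 718138 per library, with the cXENp1 libraries at 424406 to 520485, and the sequencing depth is unknown. Zfp281 itself had 28.5, 25.1 and 34.0 FPKM in WT3 at ESC, cXENp1 and cXENp3. The KO3.34 values were 3.92, 1.29 and 3.96 FPKM. KO2.6 had 0, 0 and 0.559 FPKM. The KO2.6 ESC library stood apart from the other ESC libraries: 8 of 8 XEN markers (Gata6, Gata4, Sox17, Sox7, Foxa2, Pdgfra, Dab2 and Hnf4a) reached 1 FPKM in it, with a sum of 47.8 FPKM, against sums of 1.73 to 6.38 FPKM in the other ESC libraries. The WT3 and Rescue3.34 libraries labelled as chemically induced XEN cells at cXENp3 had XEN marker sums of 5.81 and 13.9 FPKM, with 3 of 8 markers at 1 FPKM or more in each. In the KO libraries of that stage the sum was 1147 FPKM for line 3.34 and 932 FPKM for line 2.6, and XENB1 and XEN5 had 1015 and 1318 FPKM.

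The stretch before the transcription start of Zfp42 is shown because this gene had the highest level of the 6 in 3 of the 4 ESC libraries and holds letters bound by the core factors, and that of Esrrb because Esrrb had the largest difference of the 6 at cXENp1 on the log2(FPKM + 1) scale. RefSeq entries (GRCm38.p6) were matched for 4 of the 6 members, Esrrb, Tfcp2l1, Zfp42 and Nr0b1, and the 250 bases before each start were searched on both strands. Both sequences are given 5′ to 3′ in the direction of transcription with motif letters in capitals. The Zfp42 stretch is chr8:43307010-43307259 on the minus strand, and that of the first Esrrb start is chr12:86360867-86361116 on the plus strand.
Zfp42: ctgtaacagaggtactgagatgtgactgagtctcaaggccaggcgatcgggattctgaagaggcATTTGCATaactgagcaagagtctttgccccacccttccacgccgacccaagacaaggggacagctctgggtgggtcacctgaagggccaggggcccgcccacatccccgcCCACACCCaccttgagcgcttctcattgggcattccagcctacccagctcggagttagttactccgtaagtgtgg
Esrrb: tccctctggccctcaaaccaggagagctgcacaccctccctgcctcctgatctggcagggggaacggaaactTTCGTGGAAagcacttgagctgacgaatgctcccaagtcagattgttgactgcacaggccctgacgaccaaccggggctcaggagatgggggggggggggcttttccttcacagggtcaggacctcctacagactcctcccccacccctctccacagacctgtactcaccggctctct
The first capitals in Zfp42 are an octamer, the POU factor site ATGCAAAT read from the other strand, whose outermost base lies 186 bases before the start. The other capitals there are a KLF site, GGGTGTGG read from the other strand, beginning 75 bases before the start. The capitals in Esrrb are a STAT site, TTCNNNGAA, beginning 178 bases before the start. Among 27025 promoters of the same length, 1.61% held the octamer, 3.19% the KLF site and 7.18% the STAT site. The ESRRB site TCAAGGTCA (0.366% of promoters), the shorter AAGGTCA within it (4.05%), the OCT-SOX composite, which is CATTGT, any base and the octamer (0 of 27025), and the G-rich run GGGGAGGGG of the kind Zfp281 binds (5.54%) had no match in any member's window. No searched motif matched in the windows of Tfcp2l1, Nr0b1 and a further Esrrb start. These matches are letters, not measured binding.

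In undifferentiated cells the 6 genes spanned a wide range of levels per transcript length. Taking the lines in the order WT3, Rescue3.34, KO3.34, KO2.6, Zfp42 had 577, 587, 352 and 132 FPKM, and Esrrb had 282, 269, 221 and 151 FPKM. Tfcp2l1 had 109, 96.8, 143 and 54.1 FPKM. Nr0b1 had 39.8, 30.4, 25.3 and 124 FPKM, so that KO2.6 lay above the other lines, whereas in Zfp42, Esrrb and Tfcp2l1 it was the lowest. Tbx3 had 39.9, 35.5, 46.0 and 62.5 FPKM, again highest in KO2.6. Prdm14, the least abundant, had 14.2, 17.5, 15.1 and 8.02 FPKM and was lowest in KO2.6. Over the 4 ESC libraries the mean was 412 ± 216 FPKM for Zfp42 and 231 ± 59.1 for Esrrb (SD, n = 4), 101 ± 36.7 for Tfcp2l1, 54.8 ± 46.4 for Nr0b1, 46.0 ± 11.8 for Tbx3 and 13.7 ± 4.05 for Prdm14.

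**Figure D1:**
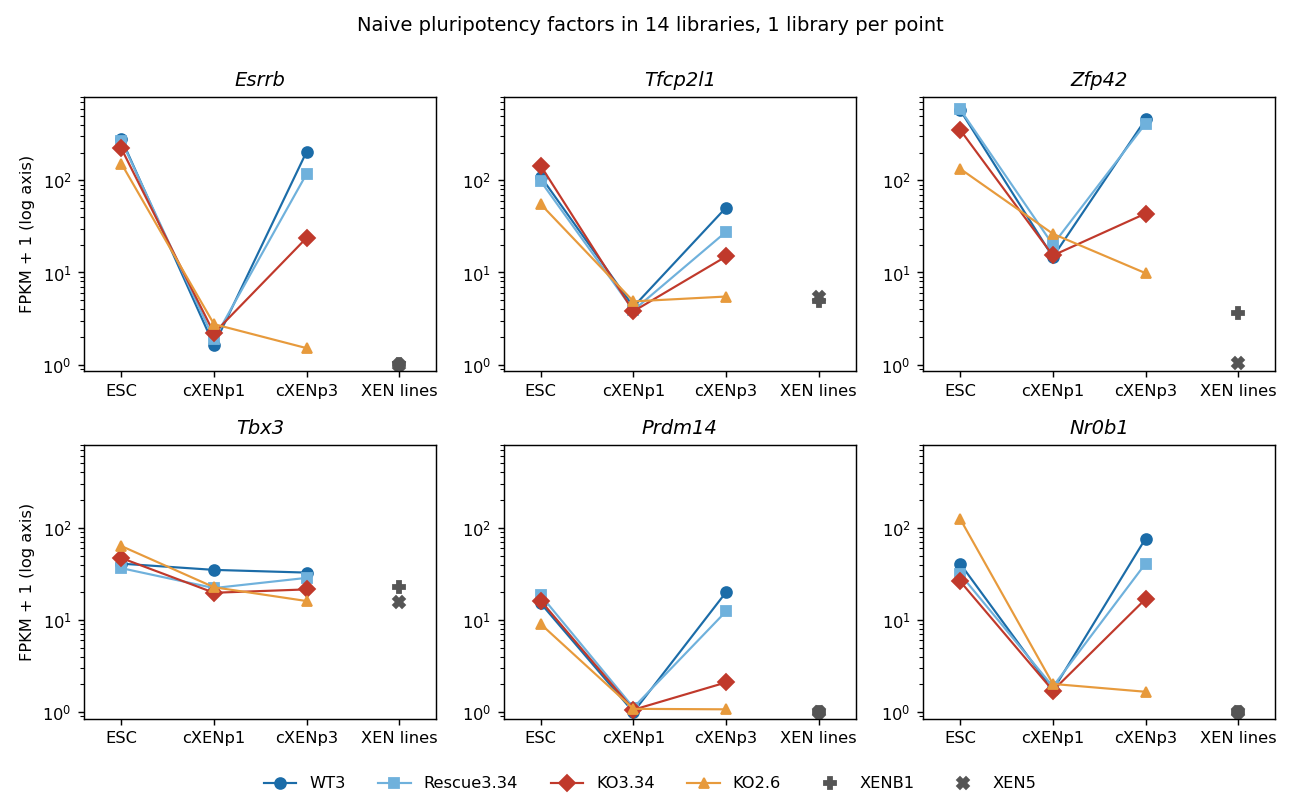
FPKM + 1 on a log axis for each of the 6 genes, 1 point per library; lines join the 3 stages of an ESC line, and the XEN lines stand at the right. At cXENp1 all 4 lines are lower than at ESC in each panel, least so for Tbx3, and at cXENp3 the WT3 and Rescue3.34 points lie above both KO points in each panel.

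The established XEN lines define the end of the path. Prdm14 and Nr0b1 were listed at 0 in both, and Esrrb had 0.0120 FPKM in XENB1 and was listed at 0 in XEN5. Zfp42 had 2.67 FPKM in XENB1 and 0.0346 in XEN5. The XENB1 library also held Pou5f1 at 10.4 FPKM, which was listed at 0 in XEN5, while Sox2 was at 0.0549 and 0.0709 FPKM and Nanog at 0 and 0.0533 FPKM; the part of this in the Zfp42 value was not tested. Tfcp2l1 kept a low level, 3.91 and 4.44 FPKM, and Tbx3 had 22.0 and 14.7 FPKM. In every gene the XEN and ESC values did not overlap, which is a description, as the share of all genes without overlap was not counted.

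Against the ESC libraries, 6 of 6 members were called lower in the XEN lines (limma adjusted p under 0.05), where 19.7% of all 12372 genes tested were called lower and 22.2% higher. Esrrb, Prdm14 and Nr0b1 passed the filter on low values through the ESC libraries alone and so had to differ. Zfp42 reached 1 FPKM in XENB1 (2.67) but not in XEN5, so it too needed ESC libraries to pass. The log2(FPKM + 1) difference was -7.81 ± 0.28 (SE) for Esrrb, -7.51 ± 0.69 for Zfp42 and -4.22 ± 0.36 for Tfcp2l1. Nr0b1 differed by -5.50 ± 0.58 and Prdm14 by -3.83 ± 0.33; values of genes listed at 0 rest on the pseudocount and are no bound. Tbx3 fell by 1.28 (SE 0.28, limma adjusted p = 0.00906), the smallest of the 6 differences, and was not called without XEN5 (limma adjusted p = 0.0996). Markers of other cell types moved in the same comparison: 8 of 8 XEN markers and 6 of 7 feeder fibroblast markers tested were called higher, and 4 of 5 germ cell markers tested were called lower. In WT3 and Rescue3.34 ESCs 0 of the 8 XEN markers reached 1 FPKM, so their count is given as a description. The feeder fibroblast markers, collagens among them, summed to 624 FPKM in XENB1 and 544 in XEN5, with all but Lum at 1 FPKM or more in both, against 1.65 to 16.8 FPKM in the ESC libraries; their part in the member values was not tested.

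At passage 1, 5 of the 6 genes had at most 19.1% of the ESC level of the same line. In the same order of lines, Esrrb had 0.618, 0.875, 1.19 and 1.75 FPKM, which is 0.219% to 1.16% of the ESC level of the same line. Prdm14 was listed at 0 in WT3 and had 0.119, 0.0607 and 0.0853 FPKM in the other lines, at most 1.06% of the ESC level. Nr0b1 had 0.727, 0.892, 0.713 and 1.02 FPKM, or 0.826% to 2.93%. For these 3 genes no cXENp1 value came near an ESC value. Tfcp2l1 had 3.24, 2.88, 2.79 and 3.86 FPKM, or 1.95% to 7.13% of the ESC level. Zfp42 remained the highest of these 5 genes at 13.7, 19.0, 14.3 and 25.3 FPKM, which is 2.38% to 19.1%, with the highest share in KO2.6, where its ESC level was lowest. Tbx3 went another way: it had 34.0, 21.2, 18.7 and 21.7 FPKM and held 34.7% to 85.2% of the ESC level, so that at cXENp1 it was the most abundant of the 6 in WT3, Rescue3.34 and KO3.34. With library sums rescaled to a common total, Tbx3 held from 45.2% in KO2.6 to 141% in WT3, so its direction in WT3 depends on the scaling.

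With the line as a block, 6 of 6 members were called lower at cXENp1 than at ESC, where 13.8% of 13191 genes were called lower and 14.7% higher. Prdm14 reached 1 FPKM in 0 of the 4 cXENp1 libraries and Nr0b1 in 1, so both passed the filter on low values through ESC or cXENp3 libraries. Values this low at cXENp1 left little room for a rise over ESC, and the count over the 6 is no support. The log2(FPKM + 1) difference was -6.77 ± 1.04 for Esrrb, -4.53 ± 0.47 for Tfcp2l1 and -4.26 ± 0.85 for Zfp42 (SE; limma adjusted p = 0.00233, 0.000455 and 0.00703). Nr0b1 differed by -4.63 ± 0.98 and Prdm14 by -3.74 ± 0.65 (limma adjusted p = 0.00934 and 0.00389). Tbx3 fell by 0.92 (SE 0.27, limma adjusted p = 0.0334); with library sums rescaled to a common total, which moves the median of all genes by 0.47, the Tbx3 difference was -0.41 and was not called (limma adjusted p = 0.291), and after quantile normalization it was -0.75 (limma adjusted p = 0.0777). The library descriptions begin with JH in 3 cases, all of them undifferentiated cells (WT3, Rescue3.34 and KO3.34), and with XH in the other 11, and with this prefix as a term 2 members stayed called, Tfcp2l1 and Nr0b1. Esrrb was then at -8.17 (limma adjusted p = 0.0569), Zfp42 at -4.23 (0.132) and Prdm14 at -4.16 (0.0850). Without KO3.34, 3 of 6 were called, and without KO2.6, 5 of 6. The Tbx3 call was lost in 6 of 10 alternatives, 3 of the 4 fits with a line left out among them.

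Markers of other cells and states were read beside these values. Of 7 genes of the 2-cell-like state, 5 were measured above 0. All 5 were called higher at cXENp1 than at ESC, where 14.7% of all genes were. In each ESC library at most 1 of them reached 1 FPKM, so they passed the filter on low values through other libraries. This count is therefore given as a description. The list summed to 0 to 2.73 FPKM in ESC libraries and 72.9 to 306 FPKM at cXENp1, with Tcstv1 and Tcstv3 at 0 in every library. XEN markers summed to 35.9 to 48.1 FPKM at cXENp1 in WT3, Rescue3.34 and KO3.34 and to 373 FPKM in KO2.6, and 1 of 8, Dab2, was called higher. Higher calls were also made for 2 of 8 feeder fibroblast markers (Dcn and Twist2), 2 of 7 formative and primed epiblast markers (Fgf5 and Sox3), 2 of 4 neural markers (Pax6 and Nes) and 1 of 4 trophoblast markers tested. Lower calls were made for Otx2 of the formative and primed list and for Tfap2c and Dnd1 of the 6 germ cell markers. Of all genes, 14.7% were called higher and 13.8% lower, and counts from lists this short are given as a description. Their part in the member values was not tested, and in bulk samples fewer cells that express a gene and less RNA per cell cannot be told apart.

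**Figure D2:**
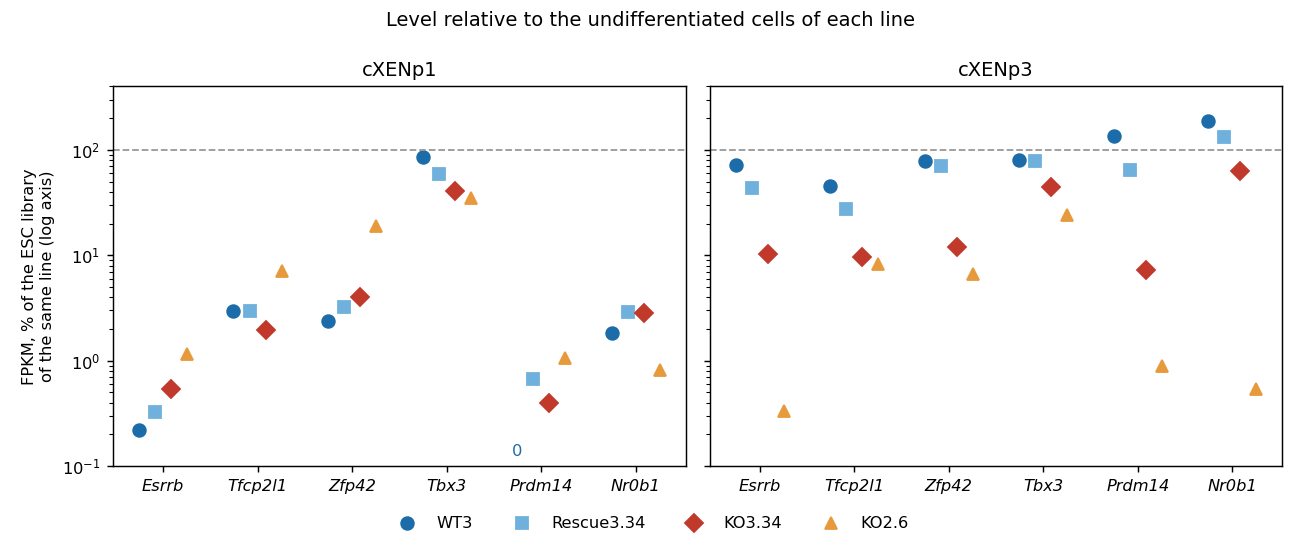
FPKM at cXENp1 (left) and cXENp3 (right) as a percentage of the undifferentiated library of the same line, on a log axis, 1 point per line; the dashed line marks 100% and a printed 0 a value listed at 0. At cXENp3, WT3 and Rescue3.34 range from 27.5% to 190.0%, KO3.34 from 7.27% to 62.9% and KO2.6 from 0.336% to 24.1%.

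At passage 3 both Zfp281-present lines had higher levels of 5 of the 6 genes than at passage 1, and Tbx3 was higher in Rescue3.34 but not in WT3. Esrrb had 204 FPKM in WT3, and Rescue3.34 had 117, or 72.4% and 43.5% of the ESC level. Zfp42 had 457 and 412 FPKM (79.2% and 70.2%), and Tfcp2l1 had 49.7 and 26.7 FPKM (45.7% and 27.5%). In all 3 genes both lines were far above their own cXENp1 value. Prdm14 had 19.1 FPKM in WT3, above its ESC level at 135%, and 11.4 FPKM in Rescue3.34, at 65.2%. Nr0b1 had 75.6 and 40.0 FPKM, which is 190.0% and 132% of the ESC level, so that it exceeded the undifferentiated library in both lines. In both lines the ESC description begins with JH and the cXENp3 description with XH, so prefix and stage cannot be told apart in these percentages. Tbx3, which had lost least, had 31.7 and 27.6 FPKM (79.5% and 77.9%).

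Between cXENp1 and cXENp3 of the Zfp281-present lines, 5 of 6 members were called higher, where 4.91% of all genes were. Esrrb, Prdm14 and Nr0b1 were under 1 FPKM in both cXENp1 libraries of these lines and passed the filter on low values through other libraries, so the count is given as a description. Esrrb rose by 6.48 ± 0.94, Nr0b1 by 4.95 ± 0.95, Zfp42 by 4.66 ± 0.63, Prdm14 by 3.90 ± 0.39 and Tfcp2l1 by 3.21 ± 0.52 on the log2(FPKM + 1) scale (SE; limma adjusted p from 0.000584 for Prdm14 to 0.0106 for Nr0b1). Tbx3 differed by 0.14 ± 0.26 (limma adjusted p = 0.776), and by -0.21 with library sums rescaled and -0.015 after quantile normalization. These calls needed both lines: without WT3 0 members were called and without Rescue3.34 only Prdm14, although the differences stayed between 2.83 and 6.99 for the 5 genes. Feeder fibroblast markers at cXENp3 summed to 33.4 FPKM for WT3, but to 1247 FPKM for Rescue3.34, with 8 of 8 at 1 FPKM or more in the latter and Lum at 0 in the former; at cXENp1 they summed to 62.1 and 51.5 FPKM. Their part in the Rescue3.34 values was not tested.

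Set against their own ESC level, 0 of 6 members were called at cXENp3 in these lines, where 1.30% of all genes were called in either direction. Tfcp2l1 came closest, at -1.47 ± 0.52 (unadjusted p = 0.0188, limma adjusted p = 0.189), and was the only member under an unadjusted p of 0.05. It was called when KO3.34 or KO2.6 was left out of the fit (limma adjusted p = 0.0473 and 0.0432), with an unchanged difference. The other differences were -0.83 ± 0.94 for Esrrb, -0.42 ± 0.63 for Zfp42, -0.34 ± 0.26 for Tbx3, -0.087 ± 0.39 for Prdm14 and 0.65 ± 0.95 for Nr0b1 (SE), intervals too wide to show that the levels were alike. With the JH or XH prefix as a term, Zfp42 (0.98), Prdm14 (0.75) and Nr0b1 (-1.60) changed sign, and the other members did not.

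In the knockout lines the same passage gave other values. At cXENp3 KO3.34 had 22.8 FPKM of Esrrb and KO2.6 had 0.509; Zfp42 had 42.6 and 8.83 FPKM. Tfcp2l1 had 13.9 and 4.48 FPKM, Nr0b1 15.9 and 0.662, and Prdm14 1.10 and 0.0719. Tbx3 had 20.5 and 15.1 FPKM. For each of the 6 genes both KO libraries lay below both Zfp281-present libraries. How many of all genes separated in this way was not counted, so the separation is given as a description.

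KO lines against Zfp281-present lines at cXENp3 gave 6 of 6 members called lower, against 19.0% of all genes called lower. Esrrb, Prdm14 and Nr0b1 were under 1 FPKM in the KO2.6 library of this stage and passed the filter on low values through other libraries. The count is therefore given as a description. The difference on the log2(FPKM + 1) scale was -4.70 ± 0.94 for Esrrb, -4.39 ± 0.63 for Zfp42 and -3.39 ± 0.39 for Prdm14 (SE; limma adjusted p = 0.00378, 0.000802 and 0.000308). It was -3.40 ± 0.95 for Nr0b1 and -2.05 ± 0.52 for Tfcp2l1 (limma adjusted p = 0.0173 and 0.0119). Tbx3 stood at -0.72 ± 0.26 with a limma adjusted p of 0.0494, and was not called without the filter on low values (0.0666) or with library sums rescaled (-0.62, limma adjusted p = 0.108). Without WT3, 2 of 6 were called, Zfp42 and Prdm14, and without Rescue3.34, 4 of 6; without KO2.6, 5 of 6 were called and the Esrrb difference was -2.71, that of Nr0b1 -1.73. XEN markers went the other way: 8 of 8 were called higher in the KO lines at that stage, where 22.9% of all genes were. Germ cell markers were called lower there in 6 of 6 cases, with sums of 7.98 and 5.38 FPKM in the KO libraries and of 70.7 and 55.7 FPKM in the Zfp281-present libraries. Of 7 formative and primed epiblast markers, 3 were called lower (Otx2, Zic2 and Lef1) and 1 higher (Fgf5), and 2 of 4 neural markers were lower (Pax6 and Sox1). Feeder fibroblast markers of KO3.34 and KO2.6 summed to 272 and 347 FPKM, between the 33.4 of WT3 and the 1247 of Rescue3.34, and 1 of 8 was called, Twist2 (1.48); their part in the member values was not tested.

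**Figure D3:**
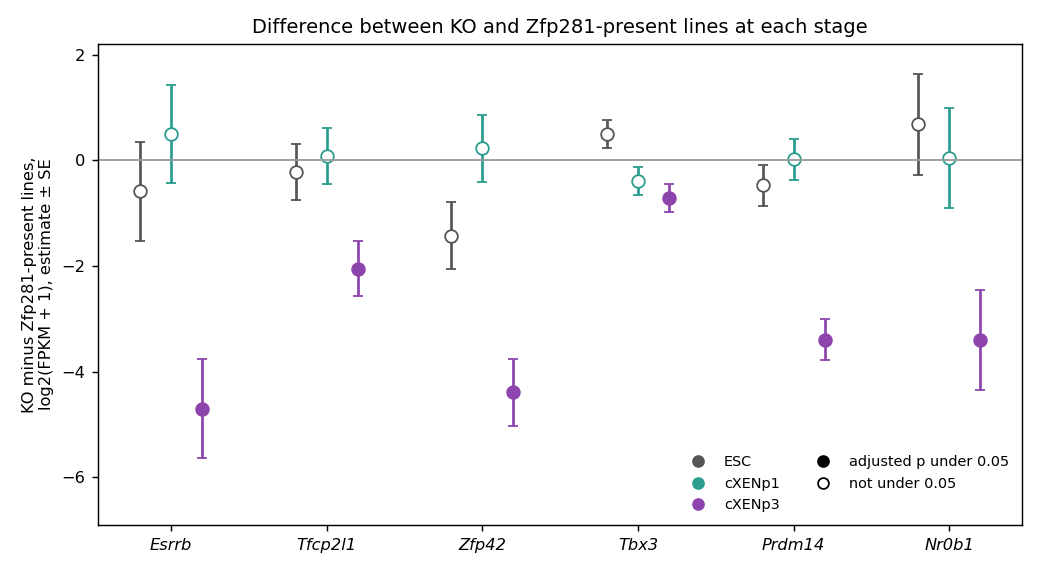
Difference between the 2 KO and the 2 Zfp281-present lines at each stage on the log2(FPKM + 1) scale, with the standard error of the model; filled points passed a limma adjusted p of 0.05. Open points at ESC and cXENp1 lie between -1.43 and 0.68, and filled points at cXENp3 between -4.70 and -0.72.

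The KO lines differed from each other as well. At cXENp3 KO3.34 exceeded KO2.6 by 44.8-fold in Esrrb, 24.0-fold in Nr0b1, 15.3-fold in Prdm14, 4.83-fold in Zfp42, 3.11-fold in Tfcp2l1 and 1.36-fold in Tbx3, with 1 library per line and so no test. Relative to its own ESC level KO3.34 had 62.9% of Nr0b1, 44.5% of Tbx3, 12.1% of Zfp42, 10.3% of Esrrb, 9.74% of Tfcp2l1 and 7.27% of Prdm14. KO2.6 had 24.1% of Tbx3, 8.29% of Tfcp2l1, 6.67% of Zfp42 and under 1% of the rest (0.896% of Prdm14, 0.535% of Nr0b1 and 0.336% of Esrrb). Pou5f1 was at 189 FPKM in the former and 47.4 in the latter, and Nanog at 28.5 and 1.64 FPKM. Zfp281 was at 3.96 and 0.559 FPKM in these libraries; its part in the gap between the lines was not tested.

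From cXENp1 to cXENp3 the KO lines together gave 0 of 6 members called, where 21.3% of all genes were called in either direction, and 0 of 6 reached an unadjusted p of 0.05. The estimates were 1.51 ± 0.95 for Nr0b1, 1.29 ± 0.94 for Esrrb, 1.08 ± 0.52 for Tfcp2l1, 0.48 ± 0.39 for Prdm14, 0.046 ± 0.63 for Zfp42 and -0.19 ± 0.26 for Tbx3 (SE). This count joined lines that went apart: with KO2.6 left out, 4 members were called higher from KO3.34, Esrrb (3.44), Nr0b1 (3.30), Tfcp2l1 (1.98) and Zfp42 (1.51, limma adjusted p = 0.0133). With KO3.34 left out, Zfp42 was called lower from KO2.6 (-1.42, limma adjusted p = 0.0213). In these fits the lone library of each stage is assumed to vary like the other groups.

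Whether the change from cXENp1 to cXENp3 differed between genotypes was tested by the interaction of Zfp281 with stage. It was called for 3 of 6 members, all lower in the KO lines, against 4.26% of all genes called in that direction: Esrrb (-5.19 ± 1.32, limma adjusted p = 0.0346), Zfp42 (-4.62 ± 0.89, 0.0150) and Prdm14 (-3.42 ± 0.55, 0.00785). Nr0b1 had -3.44 ± 1.34 and Tfcp2l1 -2.13 ± 0.74 (limma adjusted p = 0.111 and 0.0837), and Tbx3 had -0.32 ± 0.37 (0.577). At cXENp1 Prdm14 had at most 0.119 FPKM and Esrrb at most 1.75 FPKM in any line. For these genes the interaction largely repeats the difference at cXENp3 (-3.39 and -4.70), and the count is given as a description. Without WT3 or without Rescue3.34 no member was called, without KO3.34 5 members were called, and without the filter on low values the Esrrb adjusted p was 0.0703.

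Before passage 3 no member passed the test between genotypes. In ESCs 0 of 6 members were called between KO and Zfp281-present lines (1.97% of all genes were called in either direction). Zfp42, at -1.43 ± 0.63 (unadjusted p = 0.0464, limma adjusted p = 0.231), was the only member under an unadjusted p of 0.05, and the other estimates ran from -0.59 ± 0.94 for Esrrb to 0.68 ± 0.95 for Nr0b1. With KO3.34 left out, so that KO2.6 alone stood for the knockout, Zfp42 (-2.13) and Nr0b1 (1.80) were called; with KO2.6 left out none was, and Nr0b1 was at -0.45. Nr0b1 is X-linked, and the median of 364 X-linked genes minus that of autosomal genes was 0.019 on the log2 scale in KO2.6, within the range of -0.087 to 0.043 over the ESC libraries. The Y-linked gene Eif2s3y did differ between these libraries: it was at 91.2 FPKM for WT3, 43.0 for Rescue3.34 and 2.19 for KO3.34, and Eif2s3y, Ddx3y, Uty and Kdm5d were all listed at 0 for KO2.6. Xist was at 0.0823 to 0.122 FPKM in all 4 of them. The part of these differences in the member values was not tested. At cXENp1 0 of 6 members were called and 0 reached an unadjusted p of 0.05, against 0.485% of all genes called. The estimates ran from -0.40 ± 0.26 for Tbx3 to 0.50 ± 0.94 for Esrrb. With standard errors of 0.26 to 0.95, which are pooled over the stages and are not the spread at cXENp1, they do not show that the levels were alike.

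Against the established XEN lines the KO libraries at cXENp3 still held some of these transcripts. Zfp42 was called higher in them (3.41 ± 0.71, limma adjusted p = 0.0251), 1 of 6 members where 2.64% of all genes were called higher. Esrrb was at 2.57 ± 0.89, Nr0b1 at 2.41 ± 0.90, Tfcp2l1 at 0.81 ± 0.50, Prdm14 at 0.59 ± 0.37 and Tbx3 at -0.032 ± 0.28 (limma adjusted p from 0.137 to 0.972). The high values came from KO3.34: without KO2.6 3 members were called, Zfp42, Esrrb (4.56) and Nr0b1 (4.08), and without KO3.34 none was. With a pseudocount of 0.1 in place of 1, Esrrb and Nr0b1 were called as well, and without WT3, Rescue3.34 or XEN5 no member was.

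Ordered by the median over groups, the 6 genes fell into distinct patterns. Esrrb was highest in ESCs (median 245 FPKM), then at cXENp3 of the Zfp281-present lines (161), with overlapping values; the KO lines at cXENp3 (11.7) and cXENp1 (1.03) also overlapped, and the XEN lines were lowest. Zfp42 had the same order, 465, 435, 25.7, 16.7 and 1.35 FPKM, with the same overlaps. Prdm14 (15.2 and 14.6 FPKM) and Nr0b1 (57.8 and 35.1 FPKM) had their highest median at cXENp3 of the Zfp281-present lines, ahead of ESCs but overlapping with them. Below these, Prdm14 had 0.586 FPKM in the KO lines at cXENp3 and 0.0730 at cXENp1, and Nr0b1 had 8.27 and 0.810, with overlap in each gene. Tfcp2l1 separated all its neighbours, the last of them narrowly: 103 FPKM in ESCs, 38.2 at cXENp3 with Zfp281, 9.20 in the KO lines, 4.18 in the XEN lines and 3.06 at cXENp1. Its KO and XEN neighbours were 4.48 and 4.44 FPKM at their closest and its XEN and cXENp1 neighbours 3.91 and 3.86. Tbx3 varied within 43.0 FPKM in ESCs, 29.7 at cXENp3 with Zfp281, 21.4 at cXENp1, 18.3 in the XEN lines and 17.8 in the KO lines at cXENp3, and every neighbour but the ESC group overlapped.

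Over the 14 libraries the profiles of the 5 genes other than Tbx3 resembled each other, with Pearson r of log2(FPKM + 1) from 0.869 to 0.978 over their 10 pairs. The 5 pairs with Tbx3 had r from 0.726 to 0.769. All points share the libraries and their stages, and r is given as a description.

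The wider circuit was read from lists of known partners. Of the core factors, Pou5f1, Sox2 and Nanog, 3 of 3 were called lower at cXENp1 than at ESC (median -5.11 against 0 for all genes), 3 of 3 higher at cXENp3 than at cXENp1 in the Zfp281-present lines, and 3 of 3 lower in KO than in Zfp281-present lines at cXENp3. Pou5f1 had 957 FPKM in WT3 ESCs, 27.0 at cXENp1 and 1313 at cXENp3. The KLF factors Klf2, Klf4 and Klf5, which also help to hold the naive state, were 3 of 3 lower at cXENp1 and 3 of 3 higher at cXENp3 with Zfp281. At cXENp3 1 of 3 was lower in the KO lines: Klf2 differed by -3.40, whereas Klf4 and Klf5 were at 0.85 and 0.61 and did not pass. Klf4 had 123 and 146 FPKM in the KO lines, above the 97.0 of WT3 and the 56.2 of Rescue3.34. Among 8 other naive-state genes (Dppa3, Tcl1, Tdh, Nr5a2, Gbx2, Mybl2, Zfp57 and Fbxo15), 6 were lower at cXENp1, 6 were higher at cXENp3 with Zfp281 and 4 were lower in the KO lines at cXENp3. Of all genes, 13.8% were called lower at cXENp1 and 4.91% higher at cXENp3 with Zfp281. In the KO lines at cXENp3, 19.0% were called lower.

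**Figure D4:**
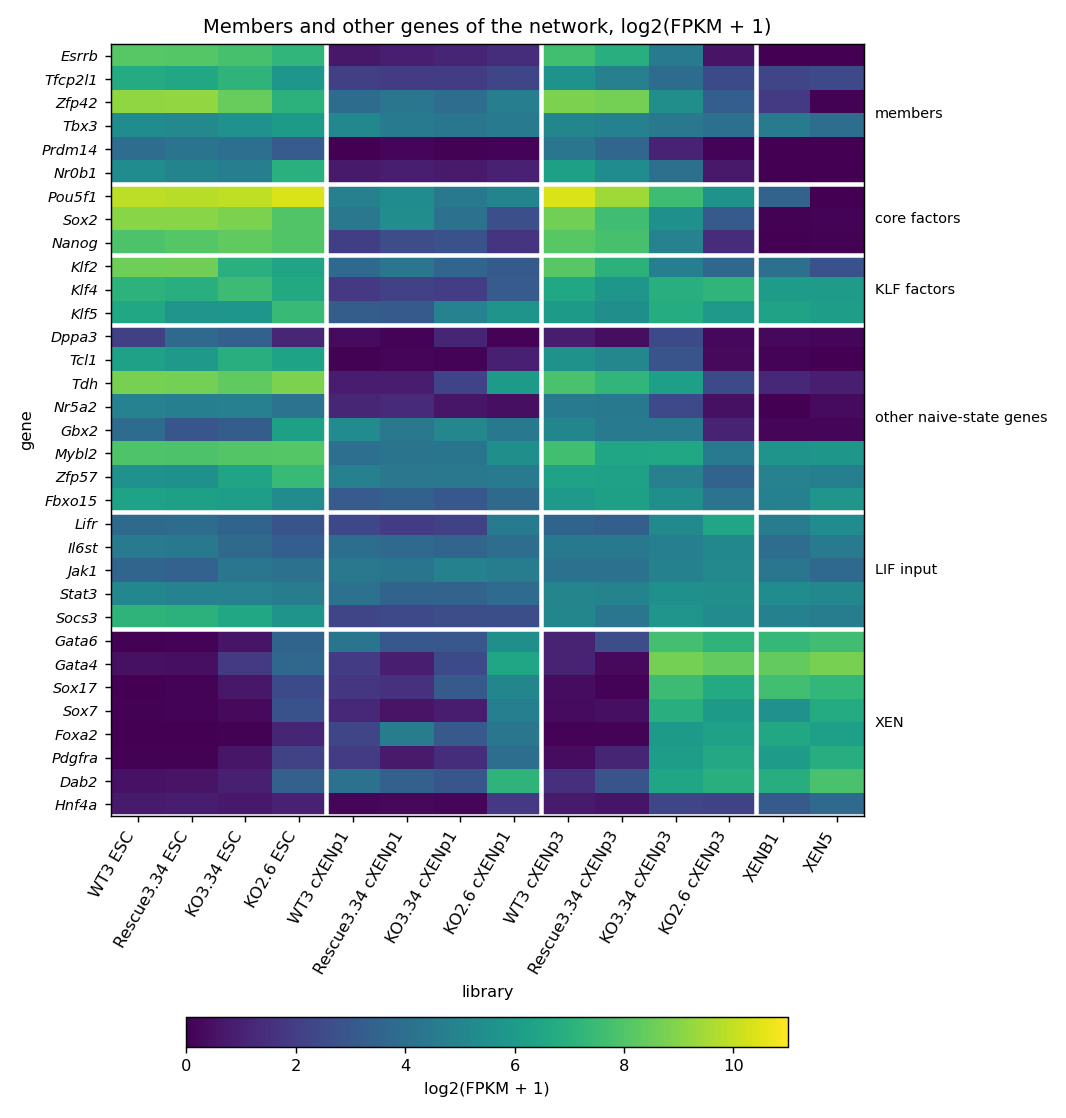
Colour gives log2(FPKM + 1) from 0 to 11 for the 6 members, the core, KLF, other naive-state and LIF input lists and the XEN markers (rows) in the 14 libraries (columns, by stage and line). The member rows other than Tbx3 are darker in the cXENp1 block than at ESC, with Zfp42 the least dark of them, and lighter again at cXENp3 in WT3 and Rescue3.34. The XEN rows are light in the KO libraries of cXENp3.

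The inputs of the circuit were mixed. Of 5 genes of the LIF input, Stat3, the LIF effector, and Socs3, its feedback target, were lower at cXENp1 (-1.10 and -4.11) and Jak1 was higher (0.65). At cXENp3, 3 of 5 were higher in the KO lines, Lifr, the LIF receptor (2.46), Jak1 (0.89) and Socs3 (0.86), a direction opposite to that of the 6 members; 22.9% of all genes were called higher there. Of 4 genes of the WNT input, 2 were higher in the KO lines at cXENp3, Tcf7l1, a repressor of Esrrb (0.91), and Gsk3b (0.85), while Ctnnb1 and Apc did not pass, against the same share of all genes. Of 8 genes of the FGF and ERK input, 5 were lower and 2 higher at cXENp1. Of all genes, 13.8% were called lower and 14.7% higher there. Fgf4, the ESC ligand, differed by -6.18 and its receptor Fgfr2 by 3.53. In the KO lines at cXENp3, 3 of 8 were lower, Fgf4 (-3.02), Etv5 (-2.62) and Fgfr1 (-1.63), where 19.0% of all genes were lower.

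Among partners and targets of Prdm14, its corepressor Cbfa2t2 was lower at cXENp1 (-1.25), higher at cXENp3 with Zfp281 (1.04) and lower in the KO lines at cXENp3 (-1.15), as Prdm14 was. The Polycomb genes Ezh2, Suz12 and Eed were lower in the KO lines at cXENp3 (-1.45, -1.43 and -1.07). Of the DNA methyltransferase genes that Prdm14 represses in ESCs, Dnmt3b differed by 0.72 at cXENp1 and 1.10 in the KO lines at cXENp3 and did not pass in either, and Dnmt3l, at -1.15 and -3.26, did not pass either. In total 5 of 7 genes of this list, the methyltransferase gene Dnmt3a among them, were lower in the KO lines at cXENp3 and none higher, where 19.0% of all genes were lower. Of the partners of Esrrb and Nr0b1, Nr5a2 was lower at cXENp1 (-3.75) and in the KO lines at cXENp3 (-3.05), and Ncoa3, an Esrrb coactivator, was higher at cXENp3 with Zfp281 (1.05) and was not called elsewhere. Of 10 relatives of the members 7 were tested, and 2 were called at cXENp1, Tbx2 (3.94) and Tbx4 (1.01), both higher, as were 14.7% of all genes. In the KO lines at cXENp3 1 of these 7 was called, Prdm1 (-1.82), which was lower as the members and 19.0% of all genes were. Tbx2, the closest relative of Tbx3, had 0.0248 to 0.0836 FPKM in ESC libraries, 5.02 to 35.0 at cXENp1 and 0.248 to 1.36 at cXENp3. Yy1, a relative of Zfp42, stayed between 49.8 and 76.3 FPKM in every library and was not called in any of the 10 comparisons.

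Genes with the most similar profiles were taken by the highest Pearson r with each member over 14 libraries, among 13368 genes. For Esrrb these were Tcl1 (0.988), Gm7325 (0.988) and Nr5a2 (0.986), and for Tfcp2l1 they were Tcl1 (0.981), Pfkp (0.976) and Sun1 (0.976). Zfp42 was most like 1700019D03Rik (0.965), Usp48 (0.964) and Utf1 (0.962). Prdm14 was most like Pecam1 (0.990), Acp6 (0.982) and Rnf125 (0.982), and Nr0b1 like Zfp459 (0.979), Gm7325 (0.977) and Gpa33 (0.976). For Tbx3 the values were lower, Ngfr (0.943), Atp2a3 (0.932) and Mei4 (0.920).

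In the genome the 6 genes lie apart, on 5 chromosomes. In coordinates of the table, whose build is mm9 per the submitters' processing notes, Esrrb (XLOC_004304) spans chromosome 12, 87702067 to 87862578, and Tfcp2l1 (XLOC_000334) chromosome 1, 120524522 to 120581745. Zfp42 (XLOC_020394) spans chromosome 8, 44380421 to 44392363, and Tbx3 (XLOC_015449) chromosome 5, 120120678 to 120134610. Prdm14 (XLOC_000650) spans chromosome 1, 13103509 to 13117244, and Nr0b1 (XLOC_022348) chromosome X, 83437114 to 83441283. Within 100 kb of the members the table lists 8 other rows, of which 2900060B14Rik, Gm16063 and Mageb4 reached 1 FPKM in no library. Clasp1, beside Tfcp2l1, and Ncoa2, beside Prdm14, were higher at cXENp1 than at ESC (1.14 and 0.81) while the members beside them fell. Gpatch2l, beside Esrrb, ranged from 4.97 to 8.95 FPKM over the 14 libraries and was not called there (-0.33). Gm16065, 486 bases from Tbx3, was lower at cXENp1 (-0.80) and lay at 1.82 FPKM or less in every library; whether its reads can be told from those of Tbx3 was not tested.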

How the data were processed

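PolyA RNA-seq with paired 150 bp reads was run on 14 mouse libraries, per the labels' protocols. The deposited table gives 1 value per gene and library. The submitters' processing notes name STAR 2.5.3, Cufflinks 2.1.1 and build mm9 without their roles; the values were taken as FPKM that the authors deposited, because they are not whole and their sums differ between libraries, and no source names the unit. The table holds no read counts, so depth is unknown and no interval or detection limit was computed.

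All tests used log2(FPKM + 1), a scale that understates changes of low genes. Genes at 1 FPKM or more in at least 2 fitted libraries were kept (13191, or 12372 for XEN against ESC and 13386 with XEN libraries in the 7 groups), and limma 3.58.1 (R 4.3.3; lmFit, eBayes with trend) was fitted over all of them with Benjamini-Hochberg adjustment over all genes tested within each of 10 comparisons. A gene was called at an adjusted p under 0.05. Line was a block in the comparison of cXENp1 with ESC, since each line gave 1 library per stage. XEN lines were compared with the 4 ESC libraries, and the other comparisons, stages within a genotype and the interaction included, used groups of 2 lines with a shared spread and no block. The ESC libraries enter several comparisons, as do the cXENp1 and cXENp3 libraries. No 2 libraries held identical values.

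On simulated data in which 200 genes were shifted by 2 (log2), the fits recovered 78% to 80.5% of them in 8 comparisons, 64.5% for XEN against ESC and 44.5% for the interaction, with 3 to 14 false calls. Alternatives were a pseudocount of 0.1, no filter, library sums rescaled to a common total of 1e+06, quantile normalization, the description prefix as a term, the fit with or without the line as a replicate block, and leaving out each line. Named genes are Zfp281, the 6 members, the marker and network lists, the 3 genes most alike in profile and those within 100 kb. The members and lists were chosen with earlier results of these data known. Promoter sequences are from RefSeq (GRCm38.p6), a build other than that of the table; the start coordinates of the table were shifted by 1 to count from 1. Python 3.11.15 and pandas 2.3.3 were used.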

Additional observations from a re-analysis of the deposited data

Results flagged for a closer look

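The difference between KO and Zfp281-present lines changed from cXENp1 to cXENp3 by a test of the change itself for 3 of the 6 genes. The interaction on the log2(FPKM + 1) scale was -5.19 for Esrrb, -4.62 for Zfp42 and -3.42 for Prdm14, and it passed the limma threshold in the 12 libraries of the course. In that direction 4.26% of all genes were called. At cXENp1 Prdm14 had at most 0.119 FPKM and Esrrb at most 1.75 FPKM in any line. For these genes the interaction largely repeats the difference at cXENp3 (-3.39 and -4.70), and the count is given as a description. Esrrb was not called without the filter on low values (limma adjusted p = 0.0703), and the calls needed both Zfp281-present lines. Both KO libraries lay below both Zfp281-present libraries at cXENp3 in each of these genes, and how many of all genes did so was not counted.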

How the results depend on the processing

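Of 594 values of single members under an alternative, 509 kept their direction and their side of the threshold, 41 lost the call, 14 gained it and 30 changed sign; none of the 271 for values called in the report changed sign. The fits that added or removed the line as a replicate block kept all 30 member values on the same side (0 for the members called between KO lines at cXENp3 and cXENp1, and 5 between these stages with Zfp281). The cause of the changes below was not tested, except that leaving out a line also leaves fewer libraries.

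Members called at cXENp1 against ESC were 6, with the prefix as a term 2, and 3 to 6 with a line left out. Leaving out a line gave 0 to 2 between genotypes in ESCs and 2 to 6 at cXENp3. It gave 0 to 5 for cXENp3 against cXENp1 with Zfp281, 0 to 1 for cXENp3 against ESC, 0 to 4 in the KO lines, 0 to 5 for the interaction and 0 to 3 for KO lines against XEN lines, where a pseudocount of 0.1 gave 3.

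Signs changed for uncalled values. With the prefix, KO minus present in ESCs became 0.47 for Tfcp2l1 and -0.45 for Nr0b1, and cXENp3 against ESC with Zfp281 became 0.98 for Zfp42, 0.75 for Prdm14 and -1.60 for Nr0b1. Rescaled sums gave -0.069 for Tfcp2l1 and -0.057 for Nr0b1 between genotypes at cXENp1, -0.21 for Tbx3 (cXENp3 against cXENp1 with Zfp281), 0.18 for Prdm14 (cXENp3 against ESC), -0.020 for Zfp42 (KO lines between passages) and 0.12 for Tbx3 (KO against XEN lines). Quantile normalization gave -0.0054 for Prdm14 between genotypes at cXENp1, -0.015 for Tbx3 between passages with Zfp281 and -0.10 for Zfp42 in the KO lines. Leaving out a line, KO minus present in ESCs ran from -0.91 to 0.47 for Tfcp2l1 and from -0.45 to 1.80 for Nr0b1. At cXENp1 it ran from -0.098 to 0.26 for Tfcp2l1, -0.17 to 0.61 for Zfp42, -0.060 to 0.10 for Prdm14 and -0.077 to 0.16 for Nr0b1. With Zfp281, Tbx3 ran from -0.098 to 0.37 between passages and Prdm14 from -0.58 to 0.40 against ESC. In the KO lines between passages, Esrrb ran from -0.87 to 3.44, Zfp42 from -1.42 to 1.51, Tbx3 from -0.50 to 0.12, Prdm14 from -0.018 to 0.99 and Nr0b1 from -0.28 to 3.30, with the lower end without KO3.34 and the upper without KO2.6. Against XEN lines, Tbx3 ran from -0.31 to 0.24.

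Counts over all genes moved too. Leaving out a line gave 2098 to 6235 for XEN against ESC (5181 with all), 1244 to 3749 for cXENp1 against ESC (3760; 439 with the prefix), and 1 to 1993, 4 to 638 and 1057 to 6150 between genotypes at ESC, cXENp1 and cXENp3 (260, 64 and 5528). It gave 54 to 2594 for cXENp3 against cXENp1 and 0 to 554 against ESC with Zfp281 (1441 and 171; 0 against ESC with the prefix), 1462 to 1936 in the KO lines (2806), 5 to 2362 for the interaction (1510) and 87 to 881 for KO against XEN lines (551). Between genotypes in ESCs the prefix gave 21 and quantile normalization 160; at cXENp1 the count was 19 with a pseudocount of 0.1, 136 without the filter, 40 rescaled, 100 after quantile normalization and 102 with the prefix. Rescaling also moved the split of calls, at cXENp1 against ESC from 1934 higher and 1826 lower to 4090 and 767, with the median of all genes at 0.47; the members stayed on the lower side. Other splits moved by rescaling were XEN against ESC (2747 and 2434 to 3354 and 1930), cXENp3 against cXENp1 with Zfp281 (648 and 793 to 453 and 1688), against ESC (74 and 97 to 114 and 53), the KO lines (1645 and 1161 to 1356 and 1499), the interaction (948 and 562 to 1283 and 447) and KO against XEN lines (353 and 198 to 557 and 170).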
